A study of Macaca mulatta with 2 samples.

Results

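The cells described here are circulating T cells that carried RNA of *CXCL13* or *IL21* in a preparation sorted for CD4+CD8+ double-positive (DP) T cells, and 89 of 7601 cells were of this kind. Antibody tags for both CD4 and CD8 lay above background in 46 of the 89. They were chosen by measured values, namely at least 1 count of *CXCL13* or *IL21* together with at least 1 count of the T cell genes *CD3D*, *CD3E* and *CD3G* in a cell that passed the cell filter. They are called CXCL13/IL21+ cells below, since 14 of them had *IL21* without *CXCL13*. The comparison was made with the 7356 filtered cells that had CD3 counts and neither gene. Counts are unique molecular identifiers (UMIs), that is, RNA molecules counted once each by a barcode. Levels are given as CPM, the summed UMIs of a gene in a group of cells divided by all gene UMIs of that group and scaled to 1e6.

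The blood of 1 healthy, untreated male rhesus monkey, 6 years of age, gave all cells, so there is 1 sample and no test between animals is possible. CD4+ cells were taken with releasable magnetic beads, CD8+ cells were then taken from these, and the cells carried DNA-tagged antibodies (feature barcodes, FB) against CD4 and CD8. An RNA library and a tag library of the same cells were sequenced with the 5′ droplet chemistry of 10x Genomics, and all 7923 cell barcodes had UMIs in both. The matrix holds 35432 genes and 32297887 gene UMIs, of which the CXCL13/IL21+ cells had 395587 and the comparison cells 30090423. Intervals in parentheses are 95% intervals, exact Poisson for CPM, exact binomial (Clopper-Pearson) for shares of cells and for the split of a gene's UMIs between groups. They cover counting error only, and cells of 1 animal are not replicates.

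CXCL13 is a chemokine that draws CXCR5+ lymphocytes into B cell follicles. IL-21 is a cytokine that acts through the IL-21 receptor and the common gamma chain and supports B cell growth and antibody class switching. Both are known products of follicular helper T (Tfh) cells, which also carry CXCR5, PD-1 and ICOS, and human PD-1high helper cells in inflamed tissue and tumours make CXCL13 with little CXCR5. In Mmul_10, the genome used by the authors, the RefSeq annotation places *CXCL13* on chromosome 5 from 56100955 to 56105858 and *IL21* on the same chromosome from 120437169 to 120445850, both on the minus strand and overlapping no other gene.

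*CXCL13* was found in 75 of the 89 cells with 289 UMIs, and *IL21* in 18 cells with 18 UMIs. Both genes were found in 4 cells. Among the cells with *CXCL13*, 27 had 1 UMI, 12 had 2, 11 had 3 and 25 had 4 or more, so the median was 2. The highest 3 cells had 37, 26 and 22 UMIs, which is 29.4% of all *CXCL13* UMIs in the 89 cells. No cell had more than 1 *IL21* UMI. The threshold lies at the smallest possible count. Just inside it were 40 cells with a single UMI of either gene, and just outside it every cell had 0. Of the QC cells with either gene, 1 had no CD3 UMI and was left out, and 2 further barcodes with 7 UMIs of these genes failed the cell filter.

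CXCL13/IL21+ cells made up 1.20% of the 7445 CD3+ cells (0.961 to 1.47). *CXCL13* was present in 1.01% (0.793 to 1.26) and *IL21* in 0.242% (0.143 to 0.382). As a check on free RNA in droplets, no UMI of either gene was found in 86 filtered cells that had 3 or more B cell gene UMIs but no CD3 UMI (B gene cells). A count of 0 of 86, taken as 3 counts, allows a share of up to 3.49% (exact upper limit 4.20%), which is above the share in the T cells, so this check alone cannot set the background. CXCL13/IL21+ cells had a median of 3280 gene UMIs (range 931 to 14804), the comparison cells 3642 and the B gene cells 4137.5. When the CD3+ cells were split by depth into 4 equal groups, CXCL13/IL21+ cells made up 1.61% of the shallowest (1.09 to 2.29), 1.23% (0.784 to 1.85) and 0.431% (0.186 to 0.847) of the middle groups and 1.51% of the deepest (28 of 1860 cells). Cells with *CXCL13*, with or without *IL21*, made up 1.61% of the shallowest group, 1.13% and 0.269% of the middle groups and 1.02% of the deepest. Cells with *IL21*, of which 10 of 18 lay in the deepest group, went from 0.107% in the shallowest to 0.538% in the deepest.

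The cells were clustered on expression without *CXCL13*, *IL21* and the T cell receptor segments. Of 15 clusters, 1 (called the main cluster) held 72 of the 89 cells (80.9%; 71.2 to 88.5), although it held 7.21% of the CD3+ cells. CXCL13/IL21+ cells made up 13.4% of the CD3+ cells of that cluster (10.6 to 16.6) and 0.246% of all others (0.143 to 0.394). No CXCL13/IL21+ cell was found among the 863 CD3+ cells of the cluster led by *CA6* and *SOX4*, nor among the 756 and 600 cells of the clusters led by *USH1C* and *GNLY* and by *TRAV12-2* and *CCL5*. Cells with a single *CXCL13* UMI lay in the cluster about as often (23 of 27, 85.2%; 66.3 to 95.8) as cells with more (41 of 48, 85.4%; 72.2 to 93.9). Cells with *IL21* alone did so in 8 of 14 cases (57.1%; 28.9 to 82.3). After *CXCL13*, the leading genes of the cluster were *OTUD5*, *CTLA4*, *F5*, *TRIB2*, *CTSL* and *CD200*. With other resolutions and numbers of principal components, 70 to 72 of the 89 cells again lay in 1 cluster.

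**Figure D1:**
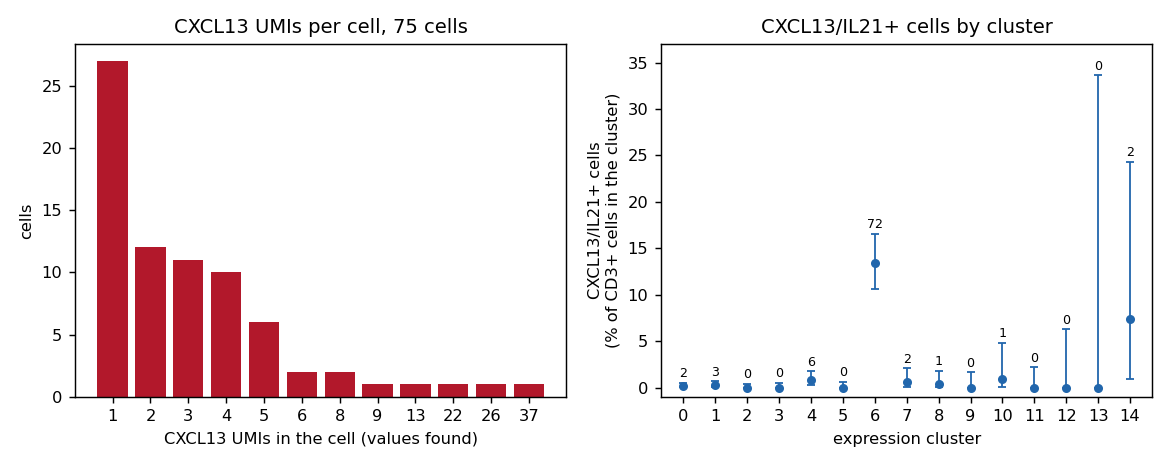
Left, number of cells (vertical axis) by the number of CXCL13 UMIs found in a cell (horizontal axis, values found), for the 75 cells with CXCL13. Right, CXCL13/IL21+ cells as a percentage of the CD3+ cells of each of the 15 expression clusters, with 95% binomial intervals and the number of CXCL13/IL21+ cells above each. Most cells have 1 to 5 UMIs, and cluster 6 holds 72 of the 89 cells.

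The name DP T cell was checked against the antibody tags. The CD4 tag had a median of 453 UMIs in CXCL13/IL21+ cells (422 to 518; cells ranged from 69 to 1531), 383 in the comparison cells and 90 in the B gene cells. The CD8 tag had a median of 343 UMIs (268 to 519; cells ranged from 65 to 2476), against 339 and 139.5. A mark was set at the level that 90% of the B gene cells did not exceed, 191 UMIs for CD4 and 330.5 for CD8. All but 1 of the 89 cells lay above the mark for CD4 (98.9%), but 46 for CD8 (51.7%; 40.8 to 62.4), and the same 46 lay above both. In the comparison cells 93.2% lay above the CD4 mark, 51.2% above the CD8 mark and 48.6% above both. CD4 on the surface thus lay above background in all but 1 of the CXCL13/IL21+ cells, while CD8 tags spread over a wide range and lay at or under the mark in the remaining 43, for which the tags do not bear out the name. Of the coreceptor RNAs, *CD4* was at 228 CPM (183 to 280) against 174 in the comparison cells, *CD8A* at 263 CPM (215 to 319) against 172, and *CD8B* at 15.2 CPM (5.57 to 33.0) against 16.7. The CD4 tag median of the 18 cells with *IL21* was 444.5 UMIs and that of the 75 cells with *CXCL13* 453. Their CD8 tag medians were 508 and 339 UMIs.

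**Figure D2:**
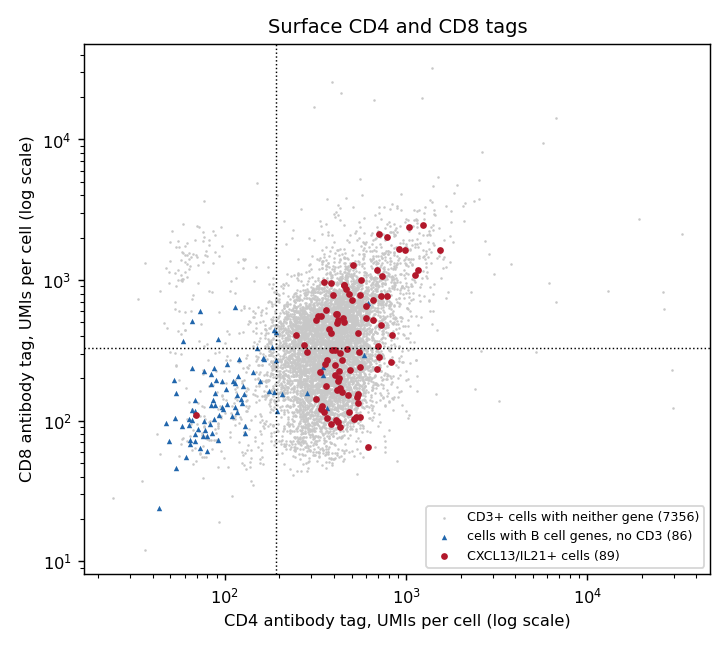
CD4 tag (horizontal axis) and CD8 tag (vertical axis) in UMIs per cell, both on log scales, for the 89 CXCL13/IL21+ cells (red circles), the 7356 CD3+ cells with neither gene (grey) and the 86 B gene cells (blue triangles). Dotted lines mark the level that 90% of the B gene cells did not exceed, 191 UMIs for CD4 and 330.5 for CD8. The red circles lie right of the vertical line in all but 1 case and on both sides of the horizontal line.

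A gene was counted as measured when it had at least 10 UMIs in CXCL13/IL21+ cells, or when at least 10 were expected there from the comparison cells. Genes that are rare in both groups are therefore not judged. A gene with fewer than 10 UMIs expected was measured only if it was higher in CXCL13/IL21+ cells. A gene with fewer than 10 found there was measured only if it was lower. Of the listed genes named below, *CD200*, *TOX2*, *CXCR5*, *CTLA4*, *LAG3*, *TNFRSF4*, *CCR4* and *CD38*, among others, entered in the first way. Counts and medians of lists are therefore descriptions and do not test a list. Of 4687 measured genes, 138 (2.94%) were at least 2-fold higher in CXCL13/IL21+ cells and 99 (2.11%) at least 2-fold lower, on the scale of CPM + 10. These are counts past a fold, not of a test. The median log2 ratio over all measured genes was 0.12. Scaling by the median ratio instead lowers this median by 0.15 and gives 99 higher and 126 lower genes. Of 63 listed or top-ranked genes past 2-fold, 55 remained so under that scaling, and *ICOS*, *CD28*, *CCR6*, *TCF7*, *CD7*, *LTB*, *CD38* and *MKI67* did not.

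The list of Tfh and B cell help genes had 13 of 18 genes measured, of which 5 were past 2-fold higher and none lower, with a median log2 ratio of 0.95 against 0.12 over all genes. *CD200*, *TOX2* and *CXCR5* were measured only through their UMIs in CXCL13/IL21+ cells. The count and the median rest partly on such genes and do not test the list. *CD200*, an immunoglobulin family glycoprotein of Tfh cells, was at 55.6 CPM (34.9 to 84.2) against 4.35. *TOX2*, an HMG-box factor that promotes Tfh differentiation, was at 53.1 CPM (32.9 to 81.2) against 5.18. *IL6ST* and *IL6R*, the signalling chain and the alpha chain of the IL-6 receptor, were at 169 CPM (131 to 215) against 47.4 and at 114 CPM against 33.8. *ICOS*, a costimulator needed for Tfh cells, was at 70.8 CPM (47.0 to 102) against 27.2. Several defining Tfh genes were not past 2-fold or not measured. *CXCR5*, the receptor of CXCL13, was at 37.9 CPM (21.2 to 62.5) against 14.8, a log2 ratio of 1.36 (0.51 to 2.10) that was 0.95 with the pseudocount and so under 2-fold, and it was found in 13 of the 89 cells. *BCL6*, the Tfh lineage factor, had no UMI in these cells, but 0.828 were expected from the comparison cells, so a difference was not detectable at this depth. *SH2D1A*, which encodes the adaptor SAP, was at 35.4 CPM (19.4 to 59.4) against 31.3, and *CD40LG*, the ligand of CD40 on B cells, at 83.4 CPM (57.4 to 117) against 52.1.

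The list of inhibitory receptors and dysfunction genes had 8 of 14 genes measured, of which *CTLA4*, *TIGIT* and *LAG3* were past 2-fold higher and none was lower, with a median log2 ratio of 0.79. *CTLA4* and *LAG3* were measured only through their UMIs in CXCL13/IL21+ cells, so this count does not test the list. *CTLA4*, which competes with CD28 for B7 ligands, had 34 UMIs in 26 cells and was at 85.95 CPM (59.5 to 120) against 20.1, a log2 ratio of 2.10 (1.55 to 2.59). *TIGIT*, which binds CD155, was at 230 CPM (185 to 282) against 66.1. *LAG3*, a ligand of MHC class II, was at 60.7 CPM (38.9 to 90.3) against 14.7. *PDCD1*, which encodes PD-1, was the most frequent of the 4, with 105 UMIs in 50 cells and at most 8 in a cell. It was at 265 CPM (217 to 321) against 128, a log2 ratio of 1.05 (0.76 to 1.33) that lay just under 2-fold with the pseudocount (0.998). At full depth, at least 1 of *PDCD1*, *TIGIT*, *CTLA4* and *LAG3* was seen in 73 of the 89 cells (82.0%; 72.5 to 89.4) and in 48.3% of the comparison cells. *HAVCR2*, *ENTPD1*, *CD160* and *CD244* had no UMI in CXCL13/IL21+ cells, and at the depth of these cells fewer than 1 UMI of each was expected.

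Shares of cells were also compared at equal depth. Each cell was thinned, that is, its UMIs were redrawn at random down to 2000, which left 83 CXCL13/IL21+ cells, 6928 comparison cells and 79 B gene cells and dropped 6, 428 and 7 shallower cells. *PDCD1* was then found in 41.0% of CXCL13/IL21+ cells, 20.7% of comparison cells and 2.53% of B gene cells, and before thinning in 56.2%, 31.5% and 5.81%. *TIGIT* was found in 33.7%, 11.5% and 8.86% after thinning and in 44.9%, 19.4% and 16.3% before. *CTLA4* was found in 14.5% and 3.59% of the T cell groups after thinning and in 29.2% and 6.48% before, and in none of the B gene cells. For *LAG3* the shares were 16.9% and 2.58% after thinning and 21.3% and 4.85% before.

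**Figure D3:**
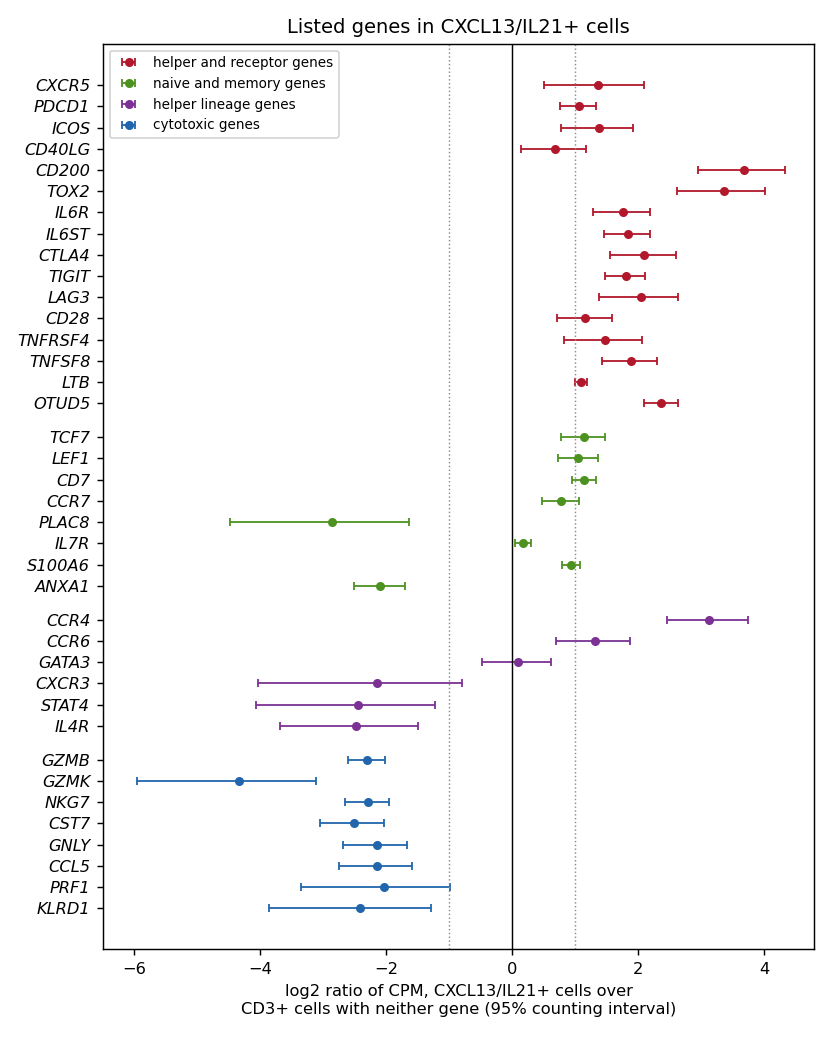
Log2 ratio of CPM in the 89 CXCL13/IL21+ cells over the 7356 CD3+ cells with neither gene (horizontal axis) for listed genes (vertical axis), with 95% intervals for counting error, coloured by group of genes. Dotted lines mark 2-fold, and the genes drawn were picked with their values known. The 16 drawn helper and receptor genes lie right of 0 and the 8 drawn cytotoxic genes left of -1.

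Of the costimulatory receptors, 9 of 12 listed genes were measured and 3 were past 2-fold higher. Besides *ICOS* these were *CD28*, the receptor of B7, at 116 CPM (85.1 to 155) against 51.9, and *TNFRSF4*, which encodes OX40, at 60.7 CPM (38.9 to 90.3) against 21.9. *TNFRSF4* was measured only through its UMIs in CXCL13/IL21+ cells. *TNFRSF1B*, a TNF receptor, was at 96.1 CPM (68.0 to 132) against 189, under 2-fold lower. Of the cytokines and chemokines, 5 of 23 listed genes were measured. *LTB*, the lymphotoxin beta chain that shapes lymphoid tissue, was at 2020 CPM (1882 to 2165) against 947, and *TNFSF8*, which encodes CD30 ligand, at 121 CPM (89.5 to 161) against 33.0. *CCL5* was the 1 past 2-fold lower. *IL4*, *IL2*, *IL10*, *TNF* and *IL22* had no UMI in CXCL13/IL21+ cells, and *IFNG* had 1. *IL17A* had 4 UMIs in 3 cells and *CCL20*, the ligand of CCR6, 3 UMIs in 3 cells, against 15 and 4 cells of the 7356 comparison cells. Neither was measured by the rule above. *IL21R*, the receptor for IL-21, had 1 UMI, and of the common gamma chain receptors 4 of 8 were measured, with *IL2RG* level at 447 CPM (384 to 518) against 445.

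Of the T helper lineages, *CCR4*, a skin-homing receptor of Th2 and regulatory cells, was at 60.7 CPM (38.9 to 90.3) against 6.95. *CCR6*, a receptor of Th17 cells and the receptor of CCL20, was at 65.7 CPM (42.9 to 96.3) against 26.5. Of 9 Th17 genes listed, 4 were measured, 2 past 2-fold higher and 1 lower (*KLRB1*), and their list as a whole summed to 276 CPM (226 to 332) against 308, with a UMI of any in 51.7% of CXCL13/IL21+ cells and 52.5% of comparison cells (34.9% and 36.6% after thinning). *GATA3*, the Th2 factor, was at 75.8 CPM (51.2 to 108) against 71.2. Of 7 Th1 genes listed, 3 were measured, and *STAT4* and *CXCR3* were past 2-fold lower, at 12.6 CPM (4.10 to 29.5) against 69.2 and at 10.1 CPM (2.75 to 25.9) against 44.96. *IL4R*, the IL-4 receptor chain, was at 20.2 CPM (8.73 to 39.9) against 113. Of 11 regulatory T cell genes 5 were measured and 4 were past 2-fold higher, but these were *CTLA4*, *TIGIT*, *TNFRSF4* and *GPX1*, which helper cells share. *CTLA4* and *TNFRSF4* were measured only through their UMIs in CXCL13/IL21+ cells. *FOXP3*, the defining factor of regulatory T cells, had 3 UMIs in 3 cells, 7.58 CPM (1.56 to 22.2) against 8.74, and *IL2RA* had 8 UMIs in 5 cells.

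Naive and central memory genes divided. Of 14 listed, 12 were measured, with 2 past 2-fold higher and 2 lower. *TCF7*, a factor of naive, memory and Tfh cells, was at 179 CPM (140 to 226) against 81.7, *CD7* at 622 CPM (547 to 705) against 282 and *LEF1*, a partner of *TCF7*, at 217 CPM (174 to 268) against 105. *CCR7*, the lymph node homing receptor, was at 245 CPM (199 to 299) against 143. *PLAC8* was lower, at 12.6 CPM (4.10 to 29.5) against 92.1. Among 12 measured memory and effector genes none was past 2-fold higher, and *ANXA1*, which encodes annexin A1, was the 1 lower, at 134 CPM (100.4 to 175) against 573.

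All 11 measured cytotoxic genes of 16 listed were past 2-fold lower, with a median log2 ratio of -2.03. The 15 listed genes found in the matrix summed to 774 CPM (689 to 865) against 3949, and 25 of the 89 cells had a UMI of any of them (28.1%; 19.1 to 38.6) against 72.5% of the comparison cells. After thinning the shares were 20.5% and 66.1%, with 20.3% in the B gene cells. *GZMB*, the most abundant of them, had 100 UMIs in 13 cells with up to 26 in a cell and was at 253 CPM (206 to 308) against 1251. *GZMK* was at 12.6 CPM (4.10 to 29.5) against 255 and *NKG7*, a granule protein, at 174 CPM (136 to 221) against 855. *KLRG1*, an inhibitory receptor of effector cells, had no UMI where 19.7 were expected, and with a floor of 3 UMIs over the group it was at least 6.56-fold lower. The other cells of the main cluster were as low, with a sum of 137 CPM (121 to 153) against 155 CPM (113 to 207) in the CXCL13/IL21+ cells inside it, and against these *GZMB* was higher, at 55.0 CPM from 16 UMIs in 4 cells against 13.8 CPM. The comparison group is a mixture in which most cells carry such genes. Against the 2333 comparison cells without *GZMB*, *PRF1*, *NKG7*, *CST7* and *GZMK* UMIs, 37 of 4557 measured genes were past 2-fold lower, in place of 99 of 4687. Past 2-fold higher were 152. This filter was put on the comparison cells alone.

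By the rule for single genes, the 15 with the highest lower bounds were *IGFBP4*, *CHN1*, *SGK1*, *CD200*, *TCEA3*, *GPX1*, *PTPN13*, *TOX2*, *CCR4*, *CTSL*, *ANXA4*, *OSBPL1A*, *OTUD5*, *NCALD* and *COL5A3*. Of these, *IGFBP4*, *CHN1*, *SGK1*, *CD200*, *TOX2* and *CCR4*, among others, were measured only through their UMIs in CXCL13/IL21+ cells. The 15 were ranked by the ratios given here, so these ratios and their intervals describe the genes and do not test them. *CHN1*, which encodes the Rac GTPase activator chimaerin 1, had 32 UMIs in 26 cells and was at 80.9 CPM (55.3 to 114) against 3.02, a log2 ratio of 4.74 (4.11 to 5.34). It was found in 78 of the 7356 comparison cells. *IGFBP4*, which binds insulin-like growth factors, had 24 UMIs in 15 cells, at 60.7 CPM (38.9 to 90.3) against 1.89. *SGK1*, a kinase induced by salt and serum, had 47 UMIs in 24 cells, at 119 CPM (87.3 to 158) against 10.2. *OTUD5*, which encodes a deubiquitinase and lies on chromosome X from 48914616 to 48951772, had 123 UMIs in 48 cells with up to 11 in a cell, at 311 CPM (258 to 371) against 60.5. *CTSL*, the lysosomal protease cathepsin L, had 72 UMIs in 44 cells, at 182 CPM (142 to 229) against 26.5. For *GPX1*, a glutathione peroxidase, 33 of 88 UMIs came from 1 cell. *CHN1* lies on chromosome 12 from 61896937 to 62096240 and *SGK1* on chromosome 4 from 37761173 to 37912105. Of the 15 genes, *CHN1*, *SGK1*, *TCEA3*, *PTPN13*, *CCR4*, *CTSL*, *ANXA4*, *OSBPL1A* and *NCALD* each overlap at least 1 other annotated gene, and none of the sources used here says whether counting used the strand. After thinning, *CHN1* was found in 16.9% of CXCL13/IL21+ cells and 0.433% of comparison cells and in no B gene cell, and *OTUD5* in 41.0%, 9.58% and 6.33%.

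The 15 genes with the lowest upper bounds were *HBB*, *GZMK*, *HBA*, *TRBV7-3*, *TRAV12-2*, *KLRG1*, *CTSW*, *SPINK2*, *CST7*, *GZMB*, *NKG7*, *HOPX*, *TRAV10*, *ANXA1* and *RGS9*. The *HBB* UMIs of the comparison cells lay in 12 of the 7356 cells. The receptor segments *TRBV7-3*, *TRAV12-2* and *TRAV10* had no UMI in CXCL13/IL21+ cells and were found in 4.28%, 7.59% and 3.37% of the comparison cells. Named alpha variable segments were found in 55 and beta segments in 52 of the 89 cells. Of the segments seen in CD3+ cells, 21 of 23 alpha and 16 of 21 beta segments were seen in these cells, and no segment was found in more than 8 cells (*TRBV27*, 8.99%; 3.96 to 16.9), against 5.52% of comparison cells. *TRBV29-1* was found in 7 cells (7.87%; 3.22 to 15.5) against 2.05%. Paired receptor sequences were not analysed here.

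The 72 cells inside the main cluster and the 17 outside it differed in their other genes. This is a description, since the clusters were made from the same genes. The cytotoxic list summed to 155 CPM (113 to 207) inside and 2497 CPM (2204 to 2820) outside, so 261 of the 306 UMIs came from the 17 cells. *GZMB* was at 55.0 CPM inside and 804 outside, and *CCL5* at 6.87 and 230 CPM. *STMN1*, a gene of cycling cells, was at 24.0 and 565 CPM, and 45 of its 66 UMIs came from 1 cell. *PDCD1* and *TIGIT* were similar in both, *PDCD1* at 278 and 230 CPM and *TIGIT* at 220 and 258 CPM. *CTLA4* was at 106 and 28.7 CPM and *LAG3* at 79.0 and 9.57 CPM. The cells outside were deeper, with a median of 5614 UMIs against 3189.5. Of these 17, 6 lay in the cluster led by *SPINK2* and *CXCR3*, 3 in that led by *HBB* and *CCR9*, and 2 each in clusters led by *TRBV7-3* and *GZMB*, by *LMNA* and *ITGB1* and by *H3C13* and *RRM2*. The other two lay in clusters led by *GZMK* and *EOMES* and by *EGR1* and *MS4A1*.

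Within the main cluster, the 72 cells could be set against 465 cells with neither *CXCL13* nor *IL21*, a comparison chosen after the data had been seen. Of 3626 measured genes 58 (1.6%) were past 2-fold higher and 35 (0.965%) lower. Of the genes past 2-fold against all comparison cells, 36 of 138 higher and 13 of 99 lower genes were shared, and 20 of the 63 listed or top-ranked genes remained. Of the 15 genes named as highest above, 10 remained past 2-fold higher, and *OTUD5*, *CTSL*, *CD200*, *CCR4* and *COL5A3* did not. All these genes had been picked with UMIs of the same 72 cells, so the numbers that remained do not test them. *TIGIT*, at 220 against 149 CPM, and *LAG3*, at 79.0 against 39.1 CPM, were under 2-fold as well (0.53 and 0.86 with the pseudocount). *CHN1* was at 99.6 against 14.8 CPM, a log2 ratio of 2.75 (1.97 to 3.53), *SGK1* at 148 against 28.2 CPM, *IGFBP4* at 72.2 against 11.5 CPM and *TOX2* at 68.7 against 21.96 CPM. *PDCD1* was at 278 against 76.4 CPM, a log2 ratio of 1.87 (1.46 to 2.26), larger than against all comparison cells. *CTLA4* was at 106 against 103 CPM, with a log2 ratio of 0.05 (-0.54 to 0.60), *ICOS* at 68.7 against 61.6 CPM, *CD200* at 44.7 against 38.2 CPM and *CXCR5* at 41.2 against 36.7 CPM, so for these the neighbours were at a like level. *PLAC8* was at 17.2 against 69.7 CPM and *IL4R* at 13.7 against 66.8 CPM. *FOXP3* was at 10.3 against 36.7 CPM, a log2 ratio of -1.83 (-4.14 to -0.23). The neighbours had a CD4 tag median of 419 UMIs and a CD8 median of 439, and the 72 cells 444.5 and 322.

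**Figure D4:**
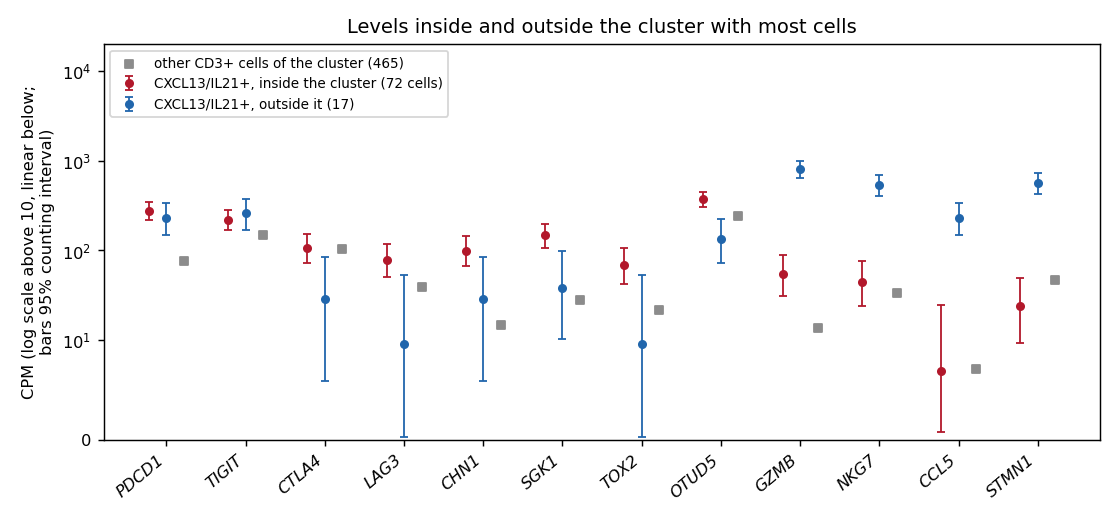
CPM (vertical axis, log scale above 10 and linear below) of 12 genes in the 72 CXCL13/IL21+ cells inside the main cluster (red), the 17 outside it (blue) and the 465 other CD3+ cells of that cluster (grey squares), with 95% Poisson intervals for the first 2 groups. CHN1, SGK1 and PDCD1 are higher in the red than in the grey points, CTLA4 is level, and GZMB, NKG7 and STMN1 are high in the blue points.

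Cells with *CXCR5* RNA and cells with *FOXP3* RNA, chosen by 1 gene each as the groups nearest in kind, were set beside them. Among comparison cells, 310 had a *CXCR5* UMI and 159 a *FOXP3* UMI. Of the *CXCR5* cells 110 also had a UMI of a listed B cell gene (35.5%), so values are also given for the 200 without one. *PDCD1* was at 265 CPM in CXCL13/IL21+ cells, 57.3 in *CXCR5* cells (62.2 without B cell genes) and 43.0 in *FOXP3* cells, a log2 ratio of 2.21 (1.81 to 2.61) and of 2.63 (2.05 to 3.23). *TOX2* was at 53.1, 8.26 (8.89) and 6.33 CPM and *CHN1* at 80.9, 4.65 (3.95) and 8.86 CPM. *TIGIT* was at 230, 73.3 (72.1) and 129 CPM. *CTLA4* was at 85.95 CPM and 26.3 (32.6) in the *CXCR5* cells, but 87.3 in the *FOXP3* cells, where the log2 ratio was -0.02 (-0.66 to 0.59). *IL2RA*, the IL-2 receptor alpha chain of regulatory T cells, was at 20.2 CPM, 27.4 (30.6) in *CXCR5* cells and 110 in *FOXP3* cells. *CCR7* was at 245, 265 (351) and 354 CPM. *GZMK* was at 12.6 CPM, 364 (563) in *CXCR5* cells and 46.8 in *FOXP3* cells. The main cluster held 21.0% of the *CXCR5* cells (16.6 to 25.9) and 25.2% of the *FOXP3* cells (18.6 to 32.6), against 80.9% of CXCL13/IL21+ cells. Median depth was 5075 UMIs in the *CXCR5* cells and 4168 in the *FOXP3* cells.

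**Figure D5:**
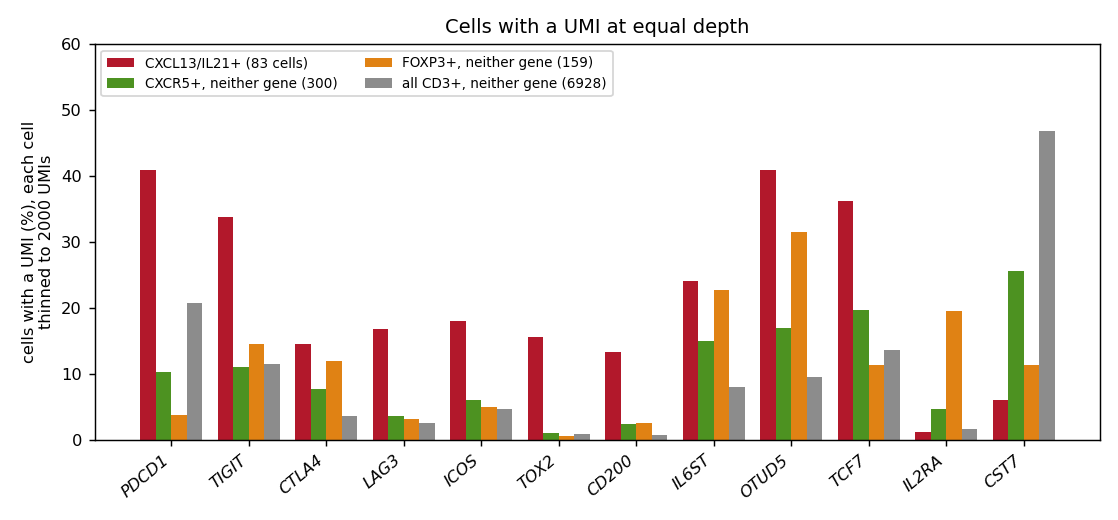
Percentage of cells with a UMI (vertical axis) after thinning each cell to 2000 UMIs, for 12 genes (horizontal axis) in 83 CXCL13/IL21+ cells, 300 cells with CXCR5, 159 cells with FOXP3 and all 6928 comparison cells. CXCL13/IL21+ cells have the highest bars for PDCD1, TIGIT, LAG3, TOX2 and CD200, and a low one for CST7.

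CXCL13/IL21+ cells also varied with the gene that admitted them. The 71 cells with *CXCL13* alone had a median of 3172 UMIs and the 14 with *IL21* alone 5630. *CD200* had 22 UMIs in 17 of the *CXCL13* cells and none in the *IL21* cells, where the interval of the log2 ratio starts at 0.58. *OTUD5* was at 309 CPM in the *CXCL13* cells and 147 in the *IL21* cells, a log2 ratio of 1.08 (0.20 to 2.08). *SATB1*, a chromatin organiser, was at 233 and 61.2 CPM and *TNFSF8* at 136 and 48.9 CPM. In the other direction *ITGB1*, the integrin beta 1 chain of memory cells, was at 93.2 and 404 CPM, a log2 ratio of -2.12 (-2.90 to -1.34), *CD69*, an early activation marker, at 409 and 930 CPM and *CD38* at 33.3 and 122 CPM. With 14 cells, single cells weigh heavily. *CD79A* had 9 of its 17 UMIs in 1 cell with *IL21*. Cells with 1 UMI of the admitting genes had *PDCD1* at 183 CPM (127 to 256) and those with more at 338 CPM (264 to 427). All 14 cells with *IL21* alone are among the 40 cells with 1 UMI. The split by UMI number is therefore mixed with the split by gene. *TNFSF8* was at 53.9 and 181 CPM and *IGFBP4* at 21.5 and 95.3 CPM, while *CTLA4* was at 91.6 and 81.0 CPM and *CD28* at 145 and 90.5 CPM. In the cells with more than 1 UMI, 49 of 49 lay above the CD4 mark of the B gene cells, but 24 of 49 (49.0%) above the CD8 mark. Of the 40 cells with 1 UMI, 22 (55.0%) lay above the CD8 mark.

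Markers of other cell types were counted in the same cells. Of 8 B cell genes, *CD22* and *BANK1* had no UMI and the others summed to 30 UMIs in 9 of the 89 cells, 75.8 CPM (51.2 to 108) against 112 in the comparison cells and 5641 in the B gene cells, with *CD79A* the most abundant. A single cell outside the main cluster had 19 of these UMIs, and the 72 cells inside had 11 UMIs in 8 cells, 37.8 CPM. Of 8 monocyte genes, 7 had no UMI, among them *LYZ*, *S100A8* and *CSF1R*, and *CD14* had 2. Of 5 platelet genes, *GP9* had 2 UMIs and the rest none, among them *PPBP* and *PF4*. Of 7 NK cell genes found, *NCAM1*, *NCR1*, *KIR2DL4* and *FCER1G* had no UMI and the sum was 48.0 CPM against 197, with *TYROBP* the most abundant. Of 5 genes of red blood cells found, *HBA* had 2 UMIs and the rest none, 5.06 CPM in sum against 243. Of 5 plasmacytoid dendritic cell genes found, *CLEC4C*, *IL3RA* and *TCF4* had none and *GZMB* made up 100 of 110 UMIs. Of 8 cycling genes all were found, at 389 CPM (330 to 456) in sum against 195, with *STMN1* the most abundant. Very few cells carried much of this sum. Most *STMN1* UMIs came from 1 cell, as given above. Among cells with more than 1 UMI of the admitting genes, 18 *RRM2* UMIs lay in 1 cell and 9 *MKI67* UMIs in 1 cell. Here 126 of 154 UMIs came from the 17 cells outside the main cluster, and a UMI of any of these genes was seen in 30.3% of CXCL13/IL21+ cells against 40.6% of comparison cells (20.5% and 25.4% after thinning). Their part in the results above was not tested, apart from counts with the cells of B cell genes, of cycling genes or of high doublet scores left out.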

How the data were processed

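The authors deposited counts of UMIs for each gene or antibody tag in each cell barcode, not normalized. The submitters' processing notes name Mmul_10 as the build, Cell Ranger 3.1.0, STAR 2.5.1b and Seurat 3.1.3. None of the sources used here states the annotation release. Of the 35432 genes, 23817 had a deposited symbol and 720 more took one from a table of gene names. Gene positions were looked up by symbol in RefSeq's Mmul_10 annotation.

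A barcode was kept if it had 200 to 4000 genes and no more than 20% of its UMIs in mitochondrial genes (13 named and 2 without a symbol). CPM were computed from summed counts, and 2-fold was judged on CPM + 10. Clustering used igraph 0.11.9 and leidenalg 0.10.2, with neighbours found by scikit-learn 1.9.0. Its settings were 2000 variable genes, 15 principal components, 20 neighbours, resolution 1 and seed 1. Scrublet, run through scanpy 1.11.5 at an expected 6%, marked 0 of 7601 cells as doublets at its own threshold, so its calls were not used. All cells were retained, and an alternative drops the 489 cells (6.43%) scored highest. Other steps used Python 3.11.15, numpy 2.4.6, scipy 1.17.1, pandas 2.3.3 and matplotlib 3.10.9. Interval code was tested on simulated data.

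The CXCL13/IL21+ cells and the gene lists were chosen with earlier results of these data known. Genes named were taken from the lists, the 15 measured genes with a symbol and at least 5 cells with a UMI whose log2 ratio has the highest lower bound, and the 15 with the lowest upper bound. Genes that choose the cells were left out of these. Alternatives varied the cell filter, the choice of cells, the comparison cells, the scaling, the pseudocount, the count minimum and the clustering. *CD27*, *LGALS1*, *FAS*, *GZMH*, *CCL4*, *FCGR3A*, *HBA2* and *LILRA4* were listed but not matched by symbol. Listed genes that entered the counts are not all reported here by name.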

Additional observations from a re-analysis of the deposited data

How the results depend on the processing

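The number of CXCL13/IL21+ cells was 48 with at least 2 UMIs of the same gene (49 with at least 2 of both genes together), 18 when chosen by *IL21* alone and 57 after thinning to 2000 UMIs before choosing, and between 75 and 90 under the other choices and filters. The genes past 2-fold higher and lower were 240 and 155 with a pseudocount of 1 and 34 and 25 with one of 50. The number of measured genes also changed with the setting, so counts are given with it, beside 99 lower of 4687 in the main setting. Lower genes were 60 of 2622 with at least 20 UMIs and 37 of 4557 against comparison cells without cytotoxic genes. For the 18 cells with *IL21* they were 26 of 1375. Within the main cluster, chosen after seeing the data, higher and lower genes were 58 and 35 of 3626. Against comparison cells without UMIs of *GZMB*, *GZMK*, *PRF1*, *NKG7* and *CST7*, the reversal of these 5 genes was fixed by the choice and their values are set by the pseudocount. The filter was put on the comparison cells alone, so the signs of the other genes given next are not results about the CXCL13/IL21+ cells either. The log2 ratios were positive for *GZMB* (4.72), *GZMK* (1.18), *GZMM* (1.11), *PRF1* (1.47), *GNLY* (0.55), *NKG7* (4.21), *CST7* (3.26), *CCL5* (1.91), *CX3CR1* (1.75), *KLRD1* (1.06), *KLRF1* (1.23) and *RGS9* (0.13). For the cells with *IL21*, *CD200* (-0.52), *CCR6* (-0.23) and *NCALD* (-0.076) turned negative, of which *CD200* had no UMI in these cells, so that its value is set by the pseudocount. Within the cluster, *GZMB* (1.45), *PRF1* (0.016), *NKG7* (0.33), *CX3CR1* (1.38), *KLRF1* (0.36), *TYROBP* (0.80) and *RGS9* (0.12) turned positive and *CD38* (-0.30), *MKI67* (-0.10) and *RRM2* (-0.067) negative. Without the cell with most UMIs of the gene, *MKI67* (-0.15) and *RRM2* (-0.38) turned negative. No other of the 63 named genes past 2-fold changed sign under the alternatives run gene by gene, which leave out those of the cell filter and, for the setting without the top cell, 5 genes with no UMI. Tag medians and the share of cells in 1 cluster stayed within their counting intervals. No paired analysis was possible because the data are 1 sample. With 395587 UMIs in all, factors of low level such as *BCL6* cannot be judged.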

Other observations

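Of 19 listed genes of activation and early response, 14 were measured in CXCL13/IL21+ cells, 1 (*CD38*) past 2-fold higher and 2 lower. *CD38* was at 55.6 CPM against 20.9, but inside the main cluster at 41.2 CPM against 53.0 in the other cells, a log2 ratio of -0.36 (-1.36 to 0.50). *FOS* was at 2877 CPM against 1840 in the comparison cells, *JUN* at 1132 against 729 and *JUNB* at 1047 against 573, each under 2-fold. *TNFAIP3*, an inhibitor of NF-kB signalling, was at 149 CPM (114 to 192) against 337, and *EGR1* at 15.2 CPM (5.57 to 33.0) against 67.2. *MYC* was at 20.2 against 43.3 CPM. Of 16 genes of the T cell receptor complex and its signalling, 15 were measured and none was past 2-fold either way. The largest of them was *LAT*, the adaptor that links the receptor to its downstream pathways, at 890 CPM (799 to 988) against 464.

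Shares of cells with UMIs of both genes of a pair were higher in CXCL13/IL21+ cells than in comparison cells for the pairs given here. *PDCD1* with *TIGIT* was found in 25.8% (17.1 to 36.2) against 8.20%, *PDCD1* with *CTLA4* in 19.1% (11.5 to 28.8) against 1.84%, *PDCD1* with *CXCR5* in 11.2% (5.52 to 19.7) against 1.07% and *OTUD5* with *PDCD1* in 30.3% (21.0 to 41.0) against 4.16%. These shares were not thinned. CXCL13/IL21+ cells had the lower median depth (3280 against 3642 UMIs) but the higher upper quartile (5646 against 4704), and the part of depth in these shares was not tested.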
